A study of Mus musculus with 7 samples.

Results

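The collagens form a family of 44 genes among the 23358 gene entries of the authors' deposited table, chosen as every entry whose symbol is Col, a type number, the letter a and a chain number. Sorted by type number, 11 of them encode fibrillar collagens (types I, II, III, V, XI, XXIV and XXVII), 8 encode basement membrane collagens (types IV, XV and XVIII) and 25 encode other types. The study set 4 RNA sequencing libraries labelled as lacking Tgfbr2, which encodes a receptor for transforming growth factor β (TGF-β), against 3 libraries labelled as controls. All 7 were of cells labelled endothelial, from brains of C57Bl6 mouse embryos at E14.5. In both groups cells were sorted by the red fluorescence of TdTomato, switched on from the Ai14 allele in recombined cells. Each library of poly(A) RNA was made from 2000 to 5000 cells and sequenced in single reads of 50 bases. The sources used here give neither the Cre driver nor the Tgfbr2 alleles of the controls, nor whether embryos were pooled or shared within a group, so the authors' p-values reflect the scatter of these libraries, possibly a technical one.

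Collagens are proteins, most of them secreted, whose chains wind around each other into a helix rich in glycine and proline. Fibrillar collagens pack into the tensile fibres of connective tissue and are made mainly by fibroblasts and other mesenchymal cells. Type IV collagen forms the sheet-like network of basement membranes, which around brain vessels is laid down by endothelial cells and pericytes. In the brain most fibrillar collagen lies in the meninges and in the walls of larger vessels. TGF-β, acting through SMAD transcription factors, is a known inducer of several collagen genes in fibroblasts.

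The authors' deposited table holds, for every gene, 1 FPKM value for each group (fragments scaled to transcript length and to the mapped total, combined over the libraries by the authors), so no spread between libraries and no depth can be given. A gene was counted where the authors tested it and it reached 1 FPKM in at least 1 group, and was called higher or lower at q under 0.05 in the authors' deposited table. Of 13356 counted genes, 23.9% were called higher and 14.7% lower in the Tgfbr2-deficient group, and their median log2(FPKM + 1) fold was −0.08. Centring on 75 ribosomal protein genes would add 0.54 to every log2 fold. The targeted gene, Tgfbr2, stood at 65.4 FPKM in the Tgfbr2-deficient group and 91.1 FPKM in the control group and did not pass (q = 0.0953 in the authors' deposited table). That value is for the whole gene, and which exons were removed is not stated. As a check of the label, 15 endothelial markers summed to 344 FPKM in the Tgfbr2-deficient group and 35.3 FPKM in the control group. In the same groups 16 microglia and macrophage markers summed to 5619 FPKM in the Tgfbr2-deficient group and 12224 FPKM in the control group. The macrophage sum was the larger in both groups, so the marker levels go against the endothelial label, in the control group above all, and the values below are those of the sorted libraries and not of endothelial cells alone. In such bulk libraries, fewer cells of a type and less RNA per cell cannot be told apart. Below, Tgfbr2-deficient cells and controls stand for the libraries so labelled. The word rose means a higher value in the Tgfbr2-deficient group, not a change shown within a cell.

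Upstream DNA of 3 members, and the start shared by another pair, are shown because these 5 genes are among the 6 collagens with the highest FPKM in the Tgfbr2-deficient group. The sequences are those of the RefSeq promoter table on GRCm38.p6, the assembly behind mm10, in which 35 of the 44 genes had an entry. Col1a2, a chain of type I collagen, is shown from chr6:4505368-4505667 on the plus strand. Col3a1, the type III chain, is shown from chr1:45311288-45311537 on the plus strand, and Col18a1, the type XVIII chain from which endostatin is cleaved, from chr10:77166531-77166780 on the minus strand. Each of the 3 stretches ends upstream of the first base of its gene in the authors' deposited table, although GENCODE M21 begins Col1a2 and Col18a1 further upstream. Col4a1 and Col4a2, the chains of the main type IV network, are read in opposite directions, and their starts in the promoter table bound the 22 bases of chr8:11312805-11312826, shown on the plus strand. Capitals mark, on either strand, the CCAAT box, the GC box GGGCGG, the TATA box TATAAA and the short SMAD motif CAGAC.
Col1a2: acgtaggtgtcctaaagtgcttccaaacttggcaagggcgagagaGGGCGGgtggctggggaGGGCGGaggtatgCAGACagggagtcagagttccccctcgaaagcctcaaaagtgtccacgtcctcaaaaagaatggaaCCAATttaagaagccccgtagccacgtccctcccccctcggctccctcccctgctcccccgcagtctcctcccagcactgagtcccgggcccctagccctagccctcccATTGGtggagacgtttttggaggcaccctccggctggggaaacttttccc
Col3a1: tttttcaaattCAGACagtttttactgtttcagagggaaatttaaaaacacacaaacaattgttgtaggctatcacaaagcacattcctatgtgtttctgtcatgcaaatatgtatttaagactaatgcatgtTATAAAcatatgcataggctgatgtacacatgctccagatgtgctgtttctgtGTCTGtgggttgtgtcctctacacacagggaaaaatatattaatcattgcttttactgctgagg
Col18a1: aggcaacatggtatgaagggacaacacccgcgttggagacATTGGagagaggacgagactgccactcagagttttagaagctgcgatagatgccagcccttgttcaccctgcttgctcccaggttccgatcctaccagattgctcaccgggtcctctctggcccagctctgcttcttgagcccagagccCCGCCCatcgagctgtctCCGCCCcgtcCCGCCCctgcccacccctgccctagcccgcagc
Col4a2 and Col4a1: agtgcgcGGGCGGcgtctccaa

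The GC box GGGCGG was found in 22 of the 35 collagen windows of 300 bases (62.9%), against 35.9% of 27025 windows over all genes. It stood in 6 of 8 fibrillar, 5 of 7 basement membrane and 11 of 20 other collagen windows. The windows of Col4a1 and Col4a2 overlap, and both hold the GC box of the 22 bases printed above. The CCAAT box, at 2 places in the Col1a2 stretch, was in 12 of the 35 windows (34.3%) and in 37.9% of all windows. TATAAA, present in the Col3a1 stretch, was in 5 of the 35 (14.3%) and in 14.2% of all windows. CAGAC, a short sequence that SMAD proteins can bind, was in 17 of the 35 (48.6%) and in 49.7% of all windows. The longer SMAD palindrome GTCTAGAC was in 0 of the 35 and in 0.211% of all windows. None of these 5 motifs contains another, both strands were searched, and a match describes letters in a window, not a bound site.

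Collagen RNA was higher in the Tgfbr2-deficient group in each of the 3 classes. Summed over the 44 genes, collagen came to 1542 FPKM in the Tgfbr2-deficient group and 185 FPKM in the control group, a ratio of 8.35. The authors tested 35 of the 44, and 34 of these were called higher and 0 lower on the authors' deposited table, where 24.8% of all tested genes were higher and 14.0% lower. The 34 shared p = 5e-05 and q = 0.00029 in the authors' deposited table, its smallest values, which 2425 tested genes (17.3%) had, so the members cannot be ranked by p. The tested member that did not pass was Col6a6, a type VI chain, at 0.994 FPKM in the Tgfbr2-deficient group and 0.0662 FPKM in the control group (q = 0.141 in the authors' deposited table). Col7a1, the anchoring fibril chain of skin, and Col17a1, a transmembrane collagen of epithelia, were among the 34 but stayed under 1 FPKM in both groups, Col7a1 at 0.886 FPKM and Col17a1 at 0.986 FPKM in the Tgfbr2-deficient group, against 0.132 and 0.214 FPKM in the control group, which left 32 members among the counted genes.

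Calls depended on the level of a gene, so the members were set beside genes of like control level. At 10 FPKM or more in the control group, the 4 collagens Col1a1, Col3a1, Col1a2 and Col4a1 were all higher, where 4.96% of 6496 tested genes were. Between 1 and 10 FPKM in the control group, 14 of 14 collagens were higher, where 30.9% of 5236 tested genes were. Under 1 FPKM in the control group, 16 of 17 were higher, where 66.9% of 2311 tested genes were. Of the 32 counted members, 14 reached 1 FPKM in the Tgfbr2-deficient group alone and could have been counted only by being higher there. A log2 fold of at least 3 together with q under 0.05, both in the authors' deposited table, was reached by 12 of the 32 and by 2.53% of all counted genes. Genes that reached the fold but did not pass are not in that share. All 32 were higher with a fold of at least 2, a rule by which 20.1% of all counted genes were higher and 2.76% lower.

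**Figure D1:**
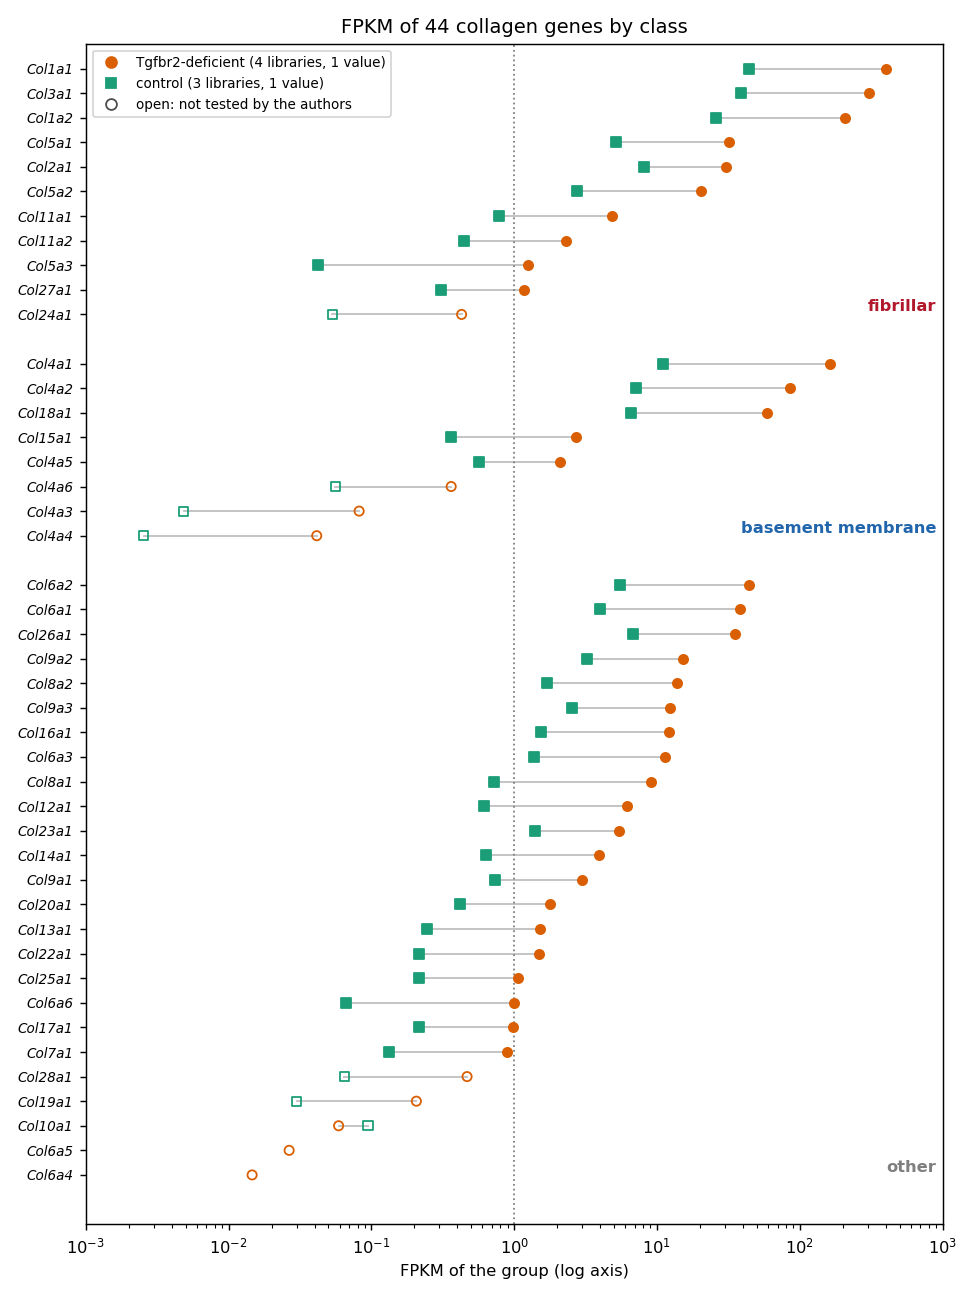
FPKM of each of the 44 collagen genes on a log axis, by class, with circles for the Tgfbr2-deficient group and squares for the control group, 1 value per group, open where the authors did not test the gene, and a dotted line at 1 FPKM. The circle lies to the right of the square for every gene drawn with both except Col10a1, and Col6a4 and Col6a5, listed at 0 FPKM in the control group, have a circle only.

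Among the fibrillar collagens, the chains of types I and III stood highest in both groups. Col1a1, the major chain of type I collagen (ENSMUSG00000001506.10, chromosome 11 from 94936270 to 94951856 in mm10, plus strand), rose to 404 FPKM in the Tgfbr2-deficient group, against 44.1 FPKM in the control group, a ratio of 9.16. Its partner chain Col1a2 (chromosome 6, 4505697 to 4541543) rose to 208 FPKM in Tgfbr2-deficient cells, against 25.9 FPKM in controls, a ratio of 8.03. Col3a1 (chromosome 1, 45311538 to 45349706), whose fibres mix with type I in soft tissue, rose to 305 FPKM in Tgfbr2-deficient cells, against 38.8 FPKM in controls, a ratio of 7.85. By FPKM, Col1a1 ranked 92 of the 13356 counted genes in the Tgfbr2-deficient group and 2227 in the control group. Annotated exons of Col3a1 share bases with those of Gm47302 on the same strand, and those of Col1a1 and Col1a2 with no other gene.

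Type V collagen is built into type I fibres and limits their width, and RNA of its chains rose with that of type I. Col5a1 had 31.8 FPKM in the Tgfbr2-deficient group and 5.20 FPKM in the control group. Col5a2, which lies 24.6 kb from Col3a1 on chromosome 1, had 20.4 FPKM in Tgfbr2-deficient cells and 2.77 FPKM in control cells. Col5a3 had the largest ratio of the counted collagens, 29.5, but on 1.25 FPKM in the Tgfbr2-deficient group and 0.0424 FPKM in the control group. Annotated exons of Col5a1 overlap those of 2 genes on the other strand, 2810430I11Rik and Gm13372, from which its reads cannot be told apart because the library kit does not mark strand.

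The remaining counted fibrillar collagens, known best from cartilage, had ratios from 3.73 to 6.15. Col2a1, the fibre of cartilage and also of early neuroepithelium, rose to 30.3 FPKM in the Tgfbr2-deficient group, against 8.14 FPKM in the control group, a ratio of 3.73. Col11a1 and Col11a2, which join type II fibres, reached 4.81 and 2.30 FPKM in the Tgfbr2-deficient group, against 0.782 and 0.448 FPKM in the control group, ratios of 6.15 and 5.13. Col27a1 had 1.16 FPKM in the Tgfbr2-deficient group and 0.306 FPKM in the control group, a ratio of 3.80. Col24a1 was not tested, at 0.429 FPKM in the Tgfbr2-deficient group and 0.0532 FPKM in the control group. In all, 10 of the 11 fibrillar genes were called higher, and the median log2(FPKM + 1) fold was 2.09 over these 10 and 1.78 over all 11, where the 13356 counted genes had −0.08.

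Among basement membrane collagens, the type IV chains of ordinary vessels led. Col4a1 (chromosome 8, 11198423 to 11312826, minus strand) rose to 164 FPKM in the Tgfbr2-deficient group, against 10.96 FPKM in the control group, a ratio of 14.95. Col4a2 (chromosome 8, 11312829 to 11449287, plus strand) rose to 85.8 FPKM in Tgfbr2-deficient cells, against 7.14 FPKM in controls, a ratio of 12.01. These were the largest ratios among the 18 collagens at 1 FPKM or more in the control group, and the pair starts back to back on the stretch printed above. Their annotated exons share bases on opposite strands, where reads of an unstranded library cannot be assigned. In all, 10 of the 44 genes share exon bases with a gene on the other strand, among them Col9a3 (Tcfl5), Col15a1 (Gm12426) and Col22a1 (Gm16308), 3 with a gene on their own strand, and 31 with none.

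The other basement membrane members stood lower. Col18a1 rose to 59.3 FPKM in the Tgfbr2-deficient group, against 6.56 FPKM in the control group, a ratio of 9.05. Its relative Col15a1, a type XV chain of vessel and muscle basement membranes, had 2.70 FPKM in the Tgfbr2-deficient group and 0.360 FPKM in the control group. Col4a5, a chain of the kidney filter and of smooth muscle, rose to 2.10 FPKM in Tgfbr2-deficient cells against 0.568 FPKM in controls, a ratio of 3.70. The 3 remaining type IV genes, Col4a3, Col4a4 and Col4a6, were not tested and reached at most 0.362 FPKM in the Tgfbr2-deficient group and 0.0559 FPKM in the control group. In all, 5 of the 8 were called higher, and the median log2(FPKM + 1) fold was 2.997 over these 5 and 1.21 over all 8, a view added after seeing the data. The basement membrane median was thus above the fibrillar one over counted genes and below it over all genes of the class. Summed FPKM was 12.3 times higher in the Tgfbr2-deficient group for the basement membrane class, 7.97 times for the fibrillar class and 6.75 times for the others, and these differences between classes were not tested.

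**Figure D2:**
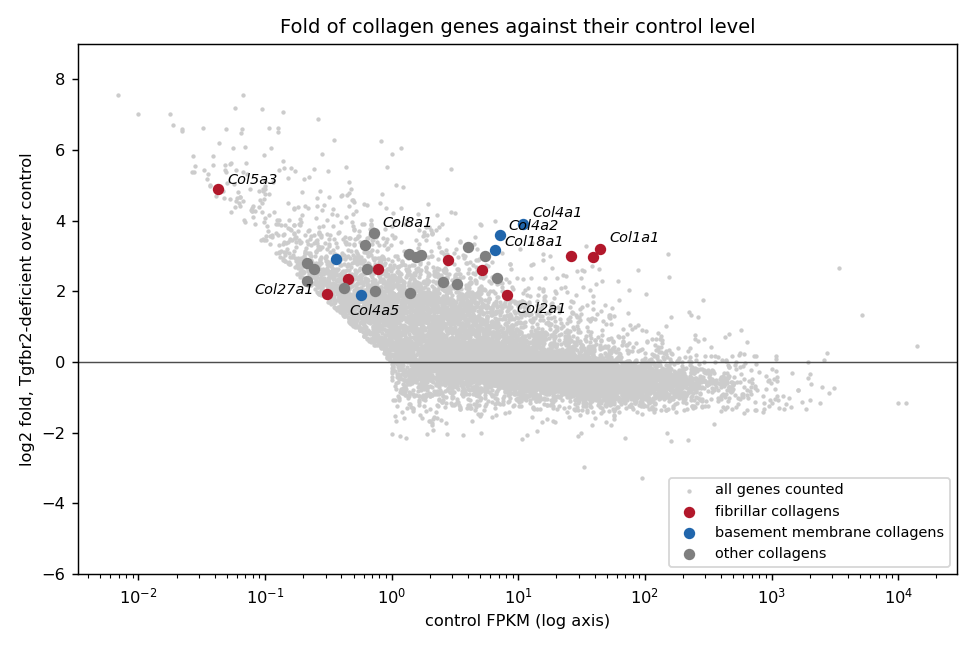
Log2 fold of the Tgfbr2-deficient over the control group, as deposited by the authors, against the control FPKM on a log axis, with counted genes in grey and the 32 counted collagens coloured by class. The collagens lie between log2 folds of 1.89 (Col4a5) and 4.88 (Col5a3), and the slanted lower left edge is the minimum of 1 FPKM, which a gene of low control level can pass only when it is higher in the Tgfbr2-deficient group.

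RNA of type VI collagen, whose beaded filaments link cells to fibres, rose for all its main chains. Col6a1 had 38.1 FPKM in the Tgfbr2-deficient group and 3.98 FPKM in the control group, a ratio of 9.58. Col6a2, 85.4 kb from it on chromosome 10, had 44.1 FPKM in the Tgfbr2-deficient group and 5.50 FPKM in the control group, a ratio of 8.02, and Col6a3 on chromosome 1 had 11.4 FPKM in Tgfbr2-deficient cells against 1.38 FPKM in controls, a ratio of 8.26. The alternative chains were near the floor of the table, with Col6a4 (0.0146 FPKM) and Col6a5 (0.0266 FPKM) in the Tgfbr2-deficient group untested and listed at 0 among controls. Col26a1, a short collagen grouped here with type VI, rose to 35.4 FPKM in Tgfbr2-deficient cells, against 6.76 FPKM in controls, while Col28a1 was not tested, at 0.468 FPKM in Tgfbr2-deficient cells against 0.0647 FPKM in controls.

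RNA of type VIII collagen, a network of vessel walls and of the cornea, rose for both chains. Col8a1 had 9.11 FPKM in the Tgfbr2-deficient group and 0.719 FPKM in the control group, a ratio of 12.7, and Col8a2 had 13.8 FPKM in the Tgfbr2-deficient group and 1.70 FPKM in the control group, a ratio of 8.10. Col10a1, the short-chain collagen of growth plate cartilage, was the only member listed lower in the Tgfbr2-deficient group, at 0.0590 FPKM in Tgfbr2-deficient cells against 0.0946 FPKM in controls, and was not tested. Its annotated exons share bases with those of Nt5dc1 on the other strand, where reads of an unstranded library cannot be assigned.

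The FACIT collagens, which sit on the surface of fibres with interrupted helices, ranged in ratio. Col12a1 and Col16a1, found in dense connective tissue, rose to 6.19 and 12.1 FPKM in the Tgfbr2-deficient group, against 0.617 and 1.55 FPKM in the control group, ratios of 10.03 and 7.79. The type IX chains, which coat type II fibres, had ratios of 4.04 for Col9a1, 4.63 for Col9a2 and 4.82 for Col9a3. Their levels were 2.98, 15.1 and 12.3 FPKM in the Tgfbr2-deficient group, against 0.737, 3.26 and 2.56 FPKM in the control group. Col14a1, Col22a1 and Col20a1 were all under 1 FPKM in the control group, at 0.638, 0.214 and 0.417 FPKM, and had ratios of 6.19, 6.99 and 4.26. Of the 9 FACIT genes 8 were called higher, and Col19a1 was not tested, at 0.207 FPKM in the Tgfbr2-deficient group and 0.0299 FPKM in the control group. Among transmembrane collagens, Col23a1 rose to 5.43 FPKM in Tgfbr2-deficient cells, against 1.41 FPKM in controls, and Col13a1 and Col25a1 reached 1.52 and 1.06 FPKM in the Tgfbr2-deficient group, against 0.244 and 0.214 FPKM in the control group. Of the 25 genes outside the fibrillar and basement membrane classes, 17 were counted and all 17 called higher, and Col7a1 and Col17a1 also passed the authors' test at under 1 FPKM. The median log2(FPKM + 1) fold was 1.92 over the 17 and 1.20 over all 25.

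A grouping made after the values were seen sets genes of types II, IX, X and XI, best known from cartilage, apart. Col27a1 (type XXVII), placed with cartilage above, was left out. The summed FPKM of the grouped genes was 67.9 in the Tgfbr2-deficient group and 16.0 in the control group, a ratio of 4.24. The whole family had 8.35, and no test was made of this difference. Beside them, 6 of 7 counted chondrocyte and bone markers were higher and 1, the matrilin Matn3, was lower. Of all counted genes 23.9% were higher and 14.7% lower. Sox9, the transcription factor of cartilage that neural progenitors also use, had 12.3 FPKM in the Tgfbr2-deficient group and 3.66 FPKM in the control group. In the same order of groups, Alpl had 4.49 and 1.02 FPKM, Lect1 4.03 and 0.521 FPKM, and Hapln1 1.30 and 0.110 FPKM. The others called higher were Matn1 (1.89 and 0.224 FPKM) and Ibsp (5.60 and 0.129 FPKM). All of these but Sox9 and Alpl were under 1 FPKM in the control group and could be counted only by being higher. Acan, the aggrecan core protein that defines cartilage matrix, was not tested, at 0.397 FPKM in the Tgfbr2-deficient group and 0.0764 FPKM in the control group. Their part in the collagen values was not tested.

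The FPKM ratio between chains that pair in 1 protein is given as a description with no error. Col1a1 stood at 1.94 times Col1a2 in the Tgfbr2-deficient group and 1.70 times in the control group, and Col4a1 at 1.91 times Col4a2 in the Tgfbr2-deficient group and 1.53 times in the control group. Col6a3 was 0.258 times Col6a2 in the Tgfbr2-deficient group and 0.250 times in the control group, and Col9a3 was 0.817 times Col9a2 in the Tgfbr2-deficient group and 0.784 times in the control group. The ratio of Col8a1 to Col8a2 was 0.661 in the Tgfbr2-deficient group and 0.423 in the control group. Other ratios went the other way. Col5a1 stood at 1.56 times Col5a2 in the Tgfbr2-deficient group and 1.88 times in the control group. Col9a1 was 0.197 times Col9a2 in the Tgfbr2-deficient group and 0.226 times in the control group. Within type IV, Col4a5 was 0.0128 times Col4a1 in the Tgfbr2-deficient group and 0.0518 times in the control group. Between classes, Col4a1 reached 0.406 times Col1a1 in the Tgfbr2-deficient group and 0.248 times in the control group.

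The make-up of the collagen sum differed between the groups in its type IV part. Type IV genes held 16.4% of the summed collagen FPKM in the Tgfbr2-deficient group and 10.1% in the control group. The fibrillar class held 65.4% in the Tgfbr2-deficient group and 68.5% in the control group, and Col1a1 alone 26.2% in the Tgfbr2-deficient group and 23.9% in the control group. FACIT collagens held 3.64% in the Tgfbr2-deficient group and 5.43% in the control group. With 1 value per group these shares have no error and were not tested.

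**Figure D3:**
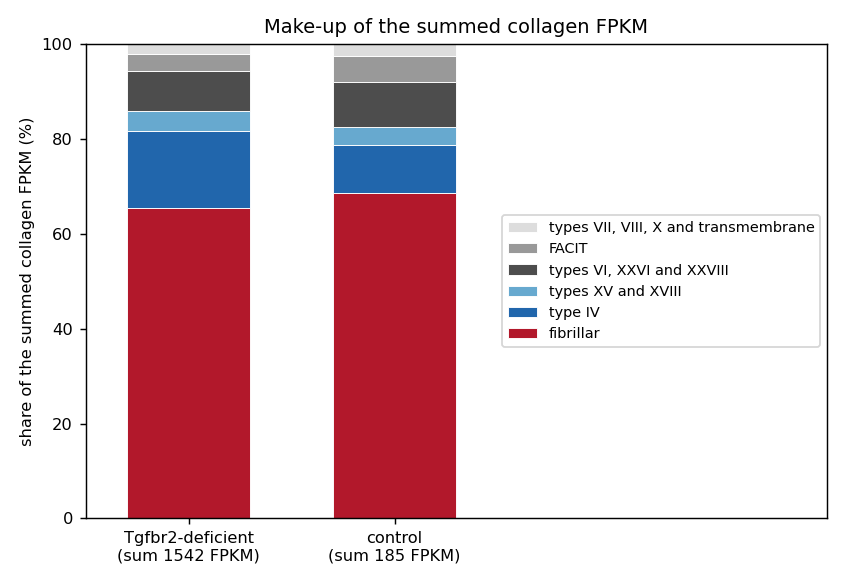
Share of the summed FPKM of the 44 collagen genes held by each collagen type or group of types, in percent, in the Tgfbr2-deficient group (sum 1542 FPKM) and the control group (sum 185 FPKM). The fibrillar part is the largest in both bars, at 65.4% and 68.5%, and the type IV part is larger in the Tgfbr2-deficient bar, at 16.4% against 10.1% in the control bar.

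Genes that fold and modify collagen chains in the endoplasmic reticulum were called in both directions. Serpinh1, the collagen chaperone HSP47, rose to 271 FPKM in the Tgfbr2-deficient group, against 43.7 FPKM in the control group, and Fkbp10, a prolyl isomerase of the same compartment, to 30.6 FPKM in Tgfbr2-deficient cells against 3.82 FPKM in controls. Plod2, a lysyl hydroxylase, rose to 6.38 FPKM in Tgfbr2-deficient cells against 1.02 FPKM in controls, and Leprel4, a member of the prolyl 3-hydroxylase family, to 18.0 FPKM in Tgfbr2-deficient cells against 3.49 FPKM in controls. Of 18 such genes, 10 were called higher, 1 lower and 7 did not pass, with a median log2(FPKM + 1) fold of 0.88. The lower one was Plod1, another lysyl hydroxylase, at 71.7 FPKM in the Tgfbr2-deficient group and 116 FPKM in the control group. P4hb, which also acts as a general disulphide isomerase, did not pass, at 291 FPKM in the Tgfbr2-deficient group and 346 FPKM in the control group. Of all 13356 counted genes 23.9% were higher and 14.7% lower, shares that belong beside each list count here and below. Among all tested genes the share higher was 66.9% under 1 FPKM in the control group. It was 30.9% from 1 to under 10 FPKM and 4.96% from 10 FPKM. The lists were not set beside genes of like control level. Here and below, a list gene under 1 FPKM in the control group could be counted only by being higher in the Tgfbr2-deficient group.

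Genes for export, trimming and cross-linking act after folding. Their counts stand beside 23.9% of all counted genes higher and 14.7% lower. Adamts2, which removes the amino-terminal propeptide, rose to 5.64 FPKM in the Tgfbr2-deficient group, against 0.690 FPKM in the control group, and Adamts3, of the same kind, to 1.20 FPKM in Tgfbr2-deficient cells against 0.201 FPKM in controls. Bmp1, which removes the carboxy-terminal propeptide, rose to 18.7 FPKM in Tgfbr2-deficient cells against 5.49 FPKM in controls, and its enhancer Pcolce to 19.5 FPKM in Tgfbr2-deficient cells against 4.15 FPKM in controls. Of 8 counted export and processing genes 5 were higher, 1 lower (Ctage5, an export receptor subunit) and 2 did not pass, with a median log2(FPKM + 1) fold of 0.77. Lox, the lysyl oxidase that starts collagen cross-links, rose to 33.3 FPKM in Tgfbr2-deficient cells, against 2.36 FPKM in controls, and Pxdn, the peroxidasin that cross-links type IV collagen, to 26.4 FPKM in Tgfbr2-deficient cells against 3.11 FPKM in controls. With Loxl1 (5.32 FPKM in Tgfbr2-deficient cells against 0.942 FPKM in controls) and Loxl2 (8.71 FPKM in Tgfbr2-deficient cells against 1.20 FPKM in controls), 4 of 5 counted cross-linking genes were higher, with a median of 2.14, and Loxl3 did not pass.

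RNA for proteins that bind collagen in the matrix was higher in nearly all counted cases, where 23.9% of all counted genes were higher. Of the fibril-binding genes 11 of 11 counted were higher, with a median log2(FPKM + 1) fold of 2.06. They included Sparc, a matricellular collagen binder, at 251 FPKM in the Tgfbr2-deficient group and 38.2 FPKM in the control group, and the proteoglycans Dcn (63.0 FPKM in Tgfbr2-deficient cells against 7.48 FPKM in controls), Bgn (21.1 FPKM in Tgfbr2-deficient cells against 2.44 FPKM in controls) and Lum (36.9 FPKM in Tgfbr2-deficient cells against 4.93 FPKM in controls). Of the laminins and other basement membrane partners 11 of 12 counted were higher, with a median of 1.36. Lama4, the laminin chain of vessels, had 21.7 FPKM in the Tgfbr2-deficient group and 1.64 FPKM in the control group, Nid1, which links laminin to type IV collagen, 30.3 FPKM in Tgfbr2-deficient cells against 2.74 FPKM in controls, Lamb1 24.1 FPKM in Tgfbr2-deficient cells against 2.67 FPKM in controls and Hspg2, perlecan, 9.50 FPKM in Tgfbr2-deficient cells against 0.905 FPKM in controls. Nid2 did not pass, at 87.7 FPKM in the Tgfbr2-deficient group and 73.1 FPKM in the control group. On both lists, genes under 1 FPKM in the control group, Hspg2 among them, could be counted only by being higher in the Tgfbr2-deficient group.

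Cells bind collagen through receptors and break it down with secreted or lysosomal proteases. Of 11 counted genes in the receptor list 7 were higher and 4 did not pass, with a median log2(FPKM + 1) fold of 1.42. Of all counted genes 23.9% were higher. The discoidin receptors Ddr1 and Ddr2 rose to 31.6 and 4.18 FPKM in the Tgfbr2-deficient group, against 9.63 and 0.937 FPKM in the control group. Gpr56, a type III collagen receptor of neural progenitors, rose to 35.7 FPKM in Tgfbr2-deficient cells against 10.8 FPKM in controls, and Mrc2, which takes up collagen for breakdown, to 7.93 FPKM in Tgfbr2-deficient cells against 1.18 FPKM in controls. Itgb1, the β chain of the collagen-binding integrins, did not pass, at 124 FPKM in the Tgfbr2-deficient group and 131 FPKM in the control group, nor did Mag, a myelin protein on this list, at 1.22 FPKM in Tgfbr2-deficient cells against 1.54 FPKM in controls. Of 7 counted proteases 6 were higher, with a median of 1.79, among them Mmp14 (50.8 FPKM in Tgfbr2-deficient cells against 9.77 FPKM in controls), Mmp15 (12.2 FPKM in Tgfbr2-deficient cells against 2.17 FPKM in controls), Mmp2 (25.0 FPKM in Tgfbr2-deficient cells against 6.52 FPKM in controls) and the cathepsin Ctsk (7.27 FPKM in Tgfbr2-deficient cells against 1.001 FPKM in controls).

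Markers of the cell types known to make collagen were mostly higher as well, where 23.9% of all counted genes were. Of 15 fibroblast and meningeal markers other than collagens 14 were higher, with a summed level of 266 FPKM in the Tgfbr2-deficient group and 35.8 FPKM in the control group, a ratio of 7.44. Dcn and Lum are on this list and on the fibril-binding list above, so they are counted in both. Ptgds, the prostaglandin synthase of the meninges, had 55.6 FPKM in the Tgfbr2-deficient group and 2.95 FPKM in the control group, and Slc6a13, a transporter of meningeal cells, 8.78 FPKM in Tgfbr2-deficient cells against 0.936 FPKM in controls. Of 14 counted pericyte and smooth muscle markers 10 were higher and 4 did not pass, with sums over 16 genes of 145 FPKM in the Tgfbr2-deficient group and 22.6 FPKM in the control group, a ratio of 6.40. They included Pdgfrb (16.8 FPKM in Tgfbr2-deficient cells against 2.63 FPKM in controls), Mcam (22.9 FPKM in Tgfbr2-deficient cells against 1.80 FPKM in controls), Vtn (27.2 FPKM in Tgfbr2-deficient cells against 3.90 FPKM in controls) and Rgs5 (8.03 FPKM in Tgfbr2-deficient cells against 0.762 FPKM in controls). All 15 endothelial markers were higher, with a ratio of sums of 9.73, among them Kdr (43.0 FPKM in Tgfbr2-deficient cells against 1.94 FPKM in controls), Cldn5 (74.9 FPKM in Tgfbr2-deficient cells against 5.02 FPKM in controls), Esam (40.6 FPKM in Tgfbr2-deficient cells against 2.28 FPKM in controls) and Flt1 (12.7 FPKM in Tgfbr2-deficient cells against 0.462 FPKM in controls). Markers under 1 FPKM in the control group, Flt1 and Rgs5 among them, could be counted only by being higher in the Tgfbr2-deficient group. None of the fibroblast and meningeal, pericyte and smooth muscle, or endothelial markers was listed at 0 FPKM in either group. Their part in the collagen values was not tested.

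Markers of other cells also differed, where 23.9% of all counted genes were higher and 14.7% lower. Of 16 microglia and macrophage markers 14 were lower, with a ratio of sums of 0.460, among them Fcrls, at 225 FPKM in the Tgfbr2-deficient group and 611 FPKM in the control group. All 12 neuron markers and 8 of 10 neural progenitor markers were higher, with summed levels in the Tgfbr2-deficient group 2.38 and 1.45 times those in the control group. Of the blood lineages, 5 of 7 mast cell markers were higher (sums of 371 FPKM in the Tgfbr2-deficient group and 8.01 FPKM in the control group) and 7 of 8 erythroid markers (24093 FPKM in Tgfbr2-deficient cells against 3799 FPKM in controls). Most of the erythroid sum lay in Hba-x, at 21740 FPKM in the Tgfbr2-deficient group and 3404 FPKM in the control group. Epor, the erythroid marker called lower, had 23.9 FPKM in the Tgfbr2-deficient group and 42.5 FPKM in the control group. Of the megakaryocyte and platelet markers 7 of 8 were higher, but their sum was lower, at 888 FPKM in the Tgfbr2-deficient group and 1885 FPKM in the control group, most of it held by Pf4, a platelet factor that was lower, at 747 FPKM in Tgfbr2-deficient cells against 1877 FPKM in controls. The part of these cells in the collagen values was not tested. Among TGF-β target genes other than collagens, 7 of 10 counted were higher and 0 lower, with a median log2(FPKM + 1) fold of 1.60. Ctgf, a matricellular target, had 10.2 FPKM in the Tgfbr2-deficient group and 0.680 FPKM in the control group, Tsc22d1 129 FPKM in Tgfbr2-deficient cells against 23.9 FPKM in controls, Bhlhe40 11.7 FPKM in Tgfbr2-deficient cells against 0.488 FPKM in controls and Fn1, fibronectin, 63.3 FPKM in Tgfbr2-deficient cells against 15.8 FPKM in controls. Tgfbi did not pass, at 85.7 FPKM in the Tgfbr2-deficient group and 108 FPKM in the control group. Fn1 was also counted on the fibril-binding list.

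**Figure D4:**
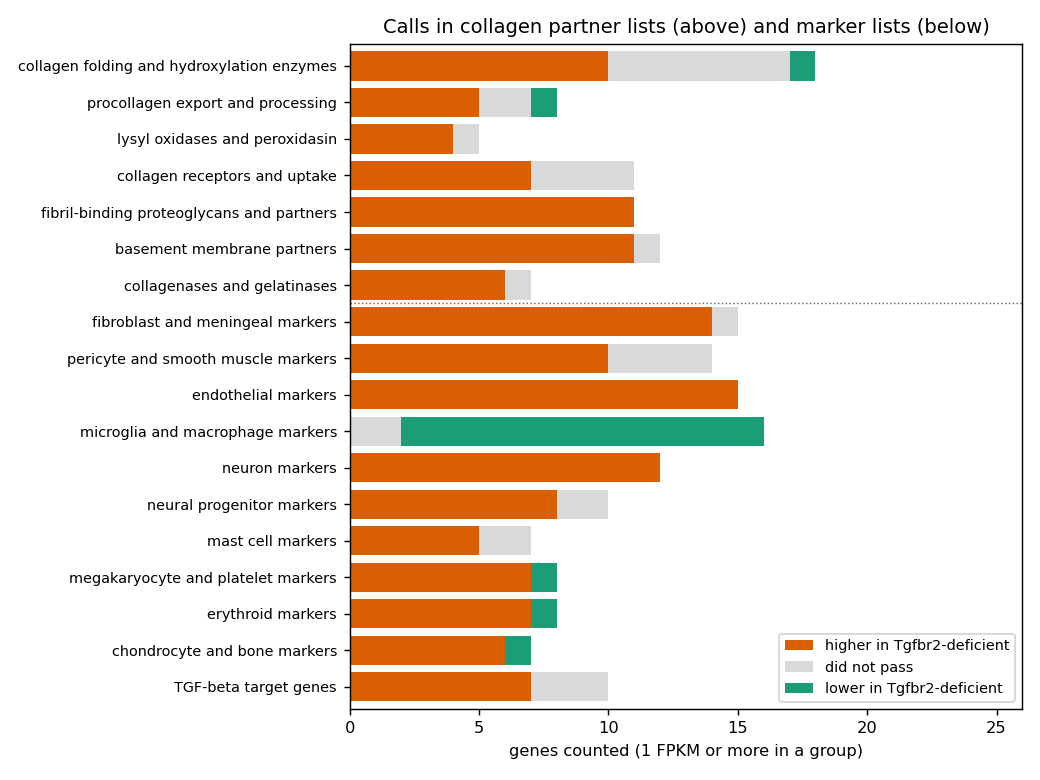
Number of counted genes called higher in the Tgfbr2-deficient group, not past the threshold, or called lower, for 7 lists of collagen partner genes (above the dotted line) and 11 lists of cell type markers and TGF-β targets (below it). All 15 endothelial markers and 11 of 11 fibril-binding genes were called higher, and 14 of 16 microglia and macrophage markers lower. Of all 13356 counted genes 23.9% were called higher and 14.7% lower. List genes under 1 FPKM in the control group could be counted only by being higher in the Tgfbr2-deficient group.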

How the data were processed

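The study deposited gene-level Cuffdiff output for 4 Tgfbr2-deficient and 3 control libraries. Per the submitters' processing notes the build was mm10 and the tools included TopHat2, Cufflinks 2.2.1 and Cuffdiff. Per the labels' protocols, the kits were SMART-Seq v4 for complementary DNA and Nextera XT for libraries, which amplify small inputs and do not mark strand. The sources used here name no annotation, normalization or test settings. The FPKM values, per the file headers, are the authors' combined value for each group, 1 each. The deposited log2 fold has no pseudocount, and the log2 ratio recomputed from FPKM (Tgfbr2-deficient over control) lay within 3.6e-05 of it. A deposited score, the test statistic, served only for a check of signs. Calls rest on the deposited p-value and q-value. The table holds 0 columns per library, so depth, spread and detection limits are unknown.

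Members, collagen classes and 18 gene lists were chosen with earlier results of these data known. Some genes are on more than 1 list. Genes named are every collagen counted, the other members by value, and up to 4 genes of each partner list by smallest p-value then largest fold, or the most abundant where none passed. For neural and blood markers mostly counts are given. Genes named because they did not pass, moved against their list, held most of a sum or fell outside the naming rule were chosen after their values were seen. List symbols not found directly were matched through synonyms in a RefSeq table of GRCm38.p6 for 8 genes. Deposited starts count from 0, since adding 1 gave a GENCODE M21 transcript start for 10024 rows against 964 without, so 1 was added. Counting was tested on simulated data. Work used Python 3.11.15 and pandas 2.3.3.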

Additional observations from a re-analysis of the deposited data

How the results depend on the processing

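No paired analysis was possible because the table holds no values per library, and for the same reason no library could be left out. For the 32 counted collagens, q under 0.01, q recomputed over counted genes, 0.1 FPKM added and centring on ribosomal protein genes could hardly change a direction or a call, since all had the table's smallest p and positive folds, so their 128 unchanged values say nothing of stability. With a minimum of 5 FPKM in at least 1 group, 20 of 20 collagens were higher (6 fibrillar, 3 basement membrane and 11 other). Of all genes so filtered, 1643 of 9558 (17.2%) were higher. Members under 5 FPKM in the control group, Col6a1 and Col8a1 among them, could pass this minimum only by being higher in the Tgfbr2-deficient group. With at least 1 FPKM in the control group, a choice made after seeing the data, 18 of 18 were higher (6, 3 and 9 by class), where 1939 of 11732 genes (16.5%) were. Of all genes, 1026 were lower at q under 0.01 and 368 at a log2 fold of at least 1. That 0 collagens were lower under the settings run was fixed in advance, since every tested collagen had a positive deposited fold. Class borders set by hand moved counts. With type IV alone as basement membrane class 3 were higher, and with FACIT collagens added to the fibrillar class 18 fibrillar and 9 other members were. The median log2(FPKM + 1) fold of the counted other collagens was 1.92 and became 2.46 when centred on ribosomal protein genes. Taken over all rows, tested or not, a choice made after seeing the data, it was 1.20, and that of basement membrane collagens was 1.21 in place of 2.997. The depth behind low FPKM values is unknown, so members under 1 FPKM are values only.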

Other observations

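Genes outside the family whose proteins carry collagen-like helices were called in both directions. In a list of 30 such genes, chosen after seeing the data, 11 of 20 counted genes were called higher, 5 lower and 4 did not pass, where 23.9% of all counted genes were higher and 14.7% lower. Over the 20 counted genes the median log2(FPKM + 1) fold was 0.86, over all 30 it was 0.23, and no test was made of a difference from the collagens. The lower ones included the complement genes of macrophages C1qa, at 523 FPKM in the Tgfbr2-deficient group and 1070 FPKM in the control group, C1qb, at 1083 FPKM in Tgfbr2-deficient cells against 2432 FPKM in controls, and C1qc, at 959 FPKM in Tgfbr2-deficient cells against 2026 FPKM in controls. Colec12, a scavenger collectin, had 89.3 FPKM in the Tgfbr2-deficient group and 138 FPKM in the control group, and Emilin2, an elastic fibre protein, 37.1 FPKM in Tgfbr2-deficient cells against 57.4 FPKM in controls. The higher ones included Cthrc1, a secreted protein of injured vessels, at 20.5 FPKM in the Tgfbr2-deficient group and 3.29 FPKM in the control group, C1qtnf3 at 5.53 FPKM in Tgfbr2-deficient cells against 0.258 FPKM in controls, and the scavenger receptors Scara3 (6.68 FPKM in Tgfbr2-deficient cells against 0.877 FPKM in controls) and Scara5 (4.98 FPKM in Tgfbr2-deficient cells against 0.386 FPKM in controls). The summed FPKM of the 30 genes was 3010 in the Tgfbr2-deficient group and 6020 in the control group, above the collagen family's 1542 and 185 FPKM in both. In the same groups 14 of 16 microglia and macrophage markers were lower, C1qa, C1qb and C1qc among them, and their part in these values was not tested.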
